A study of Mus musculus with 3 samples.

Results

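Ly6a+ Cxcl9- LepR+ cells are bone marrow stromal cells that carried transcripts of the leptin receptor gene Lepr, of the chemokine gene Cxcl12 and of Ly6a, which encodes the surface protein Sca1, but none of Cxcl9, a chemokine gene that interferon gamma induces. They were chosen by their counts of unique molecular identifiers (UMIs, each standing for 1 captured transcript): at least 10 UMIs of Cxcl12, at least 1 of Lepr, none of the endothelial gene Cdh5, at least 1 of Ly6a and none of Cxcl9. Of 24081 cells kept from 3 libraries, 4107 passed the gate on Cxcl12, Lepr and Cdh5 and 243 of these were Ly6a+ Cxcl9- cells, namely 13 of 1630 gated cells in the library of 2-mo-old mice, 129 of 603 in that of 12-mo-old and 101 of 1874 in that of 24-mo-old mice. The levels of these 5 genes follow from the choice and are no result. The cells of the same gate with neither Ly6a nor Cxcl9 served as the reference (1391, 350 and 1108 cells in the same order), and the cells with both genes (7, 35 and 470 cells) were set beside them.

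The study profiled marrow stroma during aging by droplet single-cell RNA sequencing, and the mice had received no treatment. Each age was 1 library of Lineage-CD45-CD71- cells sorted from crushed and digested femurs and tibias of 3 mice on a C57BL/Ka background, both female and male. Cells of 1 library are not replicates, so age, library and mouse cannot be told apart between ages, no test was possible, and the intervals below are 95% intervals for counting error only. A level is given as CPM, the UMIs of a gene for every 1000000 UMIs summed over the cells of a group.

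LepR+ cells are perivascular stromal cells that make most of the stem cell factor (Kitl) and CXCL12 of the marrow, the factors on which hematopoietic stem cells depend, and that also hold the skeletal stem cells which form bone and fat in adults. Sca1 is a small membrane-anchored protein of the Ly6 family. It marks fibroblast progenitors near arteries in many tissues and is also induced by interferons in several cell types. Interferon gamma acts through the receptor chains Ifngr1 and Ifngr2 to switch on immunity-related GTPases (Iigp1, Igtp, Irgm1), guanylate-binding proteins and the genes of antigen presentation.

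The libraries held 7533, 6821 and 9727 kept cells, with a median of 7779, 8382 and 6629 UMIs. Ly6a+ Cxcl9- cells had a median of 4758 UMIs at 2 mo, 7421 at 12 mo and 4530 at 24 mo, against 4874, 5144 and 5124 in the reference. Pairs of libraries shared 12 to 21 cell barcodes, none of them in a Ly6a+ Cxcl9- cell. Hemoglobin transcripts made up 0.285% of the UMIs of these cells at 12 mo and 10.4% at 24 mo, where 2 of the 101 cells were over 10% hemoglobin, against 1.21% and 15.4% in the reference. Among defining markers of other cells, Ptprc (leukocytes), Stab2 (sinusoids) and Acan (cartilage) had no UMI in any of the 243 cells, Pecam1 (endothelium) was found in 4 cells at 12 mo and 2 at 24 mo, and Myh11 (smooth muscle) in 2 cells at each of these ages. The 24 arteriolar endothelial markers summed to 31.7 CPM at 12 mo and 58.3 CPM at 24 mo, against 62.9 and 36.7 CPM in the reference. The 14 chondrocyte markers summed to 1778 CPM at 12 mo and 2971 CPM at 24 mo, against 602 and 121 CPM in the reference. These markers include Prg4, whose level at 24 mo was set by a single cell (described below). Of those deep enough, 1 of 5 was at least 1.5-fold higher and 2 lower at 12 mo, and 2 of 2 were higher at 24 mo. Without cells with Pecam1, Emcn or Cldn5 UMIs, the 3 shares of Ly6a+ Cxcl9- cells stayed within their intervals and 6 counts of called genes within 1.5-fold. The same held without cells with Ptprc, Tyrobp or Coro1a UMIs. In each of these alternatives 1 list median moved, and 6 and 4 gene ratios left their intervals. The part of smooth muscle, cartilage and other such cells in the results was not tested.

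Genes of LepR+ cell identity that the choice did not use were present in the Ly6a+ Cxcl9- cells. Kitl stood at 1732 CPM (1653 to 1814) in Ly6a+ Cxcl9- cells and 2038 CPM (1977 to 2101) in the reference at 12 mo, and at 1597 CPM (1494 to 1704) and 1746 CPM (1716 to 1776) at 24 mo. Foxc1 and Ebf3, transcription factors that LepR+ cells need, stood at 444 and 430 CPM at 12 mo and at 532 and 683 CPM at 24 mo. The reference held 596 and 625 CPM at 12 mo and 549 and 732 CPM at 24 mo, so both genes were at 0.688 to 0.968 of the reference level.

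Ly6a+ Cxcl9- cells were rare in the 2-mo library and most frequent in the 12-mo library. They made up 0.798% of gated cells at 2 mo (0.425 to 1.36), 21.4% at 12 mo (18.2 to 24.9) and 5.39% at 24 mo (4.41 to 6.51). With each cell thinned to 2000 UMIs the shares were 0.458%, 13.7% and 4.85% of 1529, 555 and 1710 cells deep enough. Free RNA can give a Ly6a UMI to a cell that does not express the gene, and 1.91%, 0.319% and 4.93% of cells rich in Hbb-bs and without Cxcl12, which are red blood cell precursors, carried Ly6a at medians of 10064, 10630 and 8074 UMIs. Over the gated cells, with or without Cxcl9, Ly6a was found in 1.23%, 27.2% and 30.5% at medians of 4907, 5796 and 4592 UMIs. The 2-mo share of Ly6a+ Cxcl9- cells lay under that of the blood precursors and is not read as expression, the 12-mo share lay above it, and the 24-mo share of 5.39% did not exceed it beyond counting error (4.23 to 5.70 in the blood precursors). Thinned to 2000 UMIs, the blood precursors with Ly6a made up 1.21%, 0.0823% and 1.51%, so that at equal depth the 24-mo share of 4.85% lay above the background. At 24 mo a single Ly6a UMI does not by itself set a cell apart from this background, since 3.08% of blood precursors also held 1. These were deeper than the gated cells, and 1.84% of them held 2 or more. Whether blood precursors express Ly6a themselves was not tested.

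**Figure D1:**
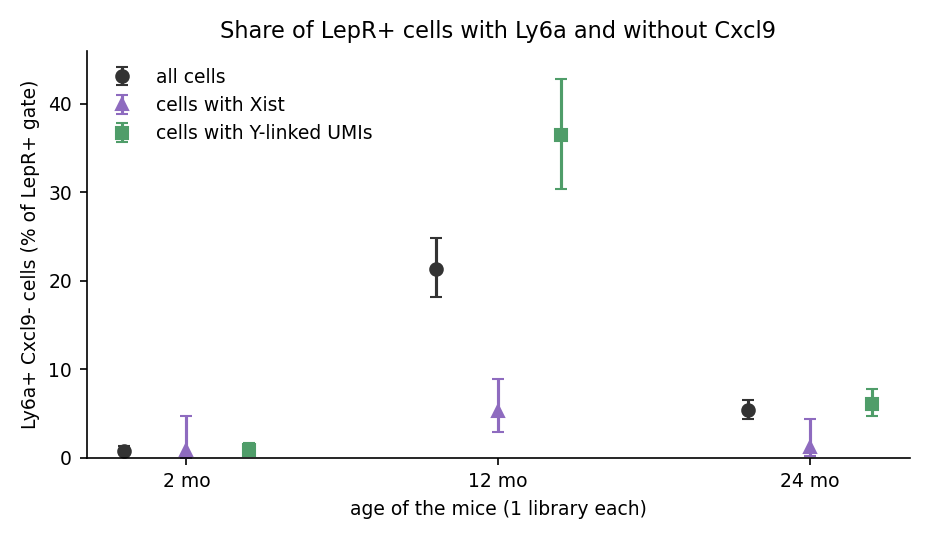
Share of gated LepR+ cells that were Ly6a+ Cxcl9- (percent) at 2, 12 and 24 mo, over all cells, cells with Xist only and cells with Y-linked UMIs only, with exact 95% binomial intervals as error bars and 1 library at each age. At 12 mo the share was 36.4% in Y-linked cells and 5.33% in Xist cells. With each cell thinned to 2000 UMIs, which is not plotted, these shares were 21.1% and 4.33%.

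Within a library the share differed between cells of different mice. A cell in which Xist was the only sex-linked marker comes from a female mouse, and one that held Ddx3y, Eif2s3y, Kdm5d or Uty but lacked Xist comes from a male. At 12 mo, 90 Ly6a+ Cxcl9- cells were Y-linked and 13 had Xist, against 111 and 173 in the reference, and the cells made up 36.4% of the Y-linked gated cells (30.4 to 42.8) but 5.33% of the Xist ones (2.87 to 8.94). At 24 mo, 62 were Y-linked and 2 had Xist, and the shares were 6.09% (4.70 to 7.74) and 1.24% (0.151 to 4.42). How many mice of each sex a library held is not given in the sources used here. Comparisons over all cells therefore also compare mice, and medians or ratios within Y-linked cells are given for the lists and genes where they were computed and bear most on a statement.

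Most of the cells rested on few Ly6a UMIs. At 12 mo 58 of 129 cells held 1 Ly6a UMI, 17 held 2 and 54 held 3 or more, up to 21 in 1 cell, and at 24 mo the numbers were 57, 15 and 29 of 101, up to 16. At 2 mo 12 of 13 cells held a single UMI. Few cells were near the other limits of the choice: 1 cell at 12 mo and 3 at 24 mo had 10 to 12 Cxcl12 UMIs, and 1 and 4 cells missed the gate with 7 to 9. In the 12-mo library 3 cells had a single Lepr UMI and 11 were left out for lack of one, and in the 24-mo library the numbers were 12 and 13. Another 10 and 43 Ly6a+ gated cells were left out for exactly 1 Cxcl9 UMI. Ly6a (ENSMUSG00000075602) lies on the minus strand at chr15:74994877-74998031 in GRCm38, next to other genes of the Ly6 family such as Ly6c1 at chr15:75044018-75048830. Reads of such paralogs, and of Bglap and Bglap2 or the H2 genes below, could be counted for the wrong copy.

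At 12 mo the Ly6a+ Cxcl9- cells held more transcript than the reference of Prg4, Gsn and most fibroblast genes deep enough and of single immediate early and complement genes, and less of most osteogenic genes and of part of the matrix and niche factor genes, while few interferon-induced genes passed 1.5-fold. Prg4, which encodes the lubricating proteoglycan lubricin of joint and tendon surfaces, stood at 1593 CPM against 334 CPM and Gsn, an actin-severing protein abundant in fibroblasts, at 912 CPM against 231 CPM. Alpl, the alkaline phosphatase of bone-forming cells, stood at 26.9 against 373 CPM. Over the 9204 genes with an expected count of at least 10 in the smaller group, 556 were at least 1.5-fold higher (6.04%) and 1141 at least 1.5-fold lower (12.4%). The 95% interval of the ratio lay above 1 for 352 of the former and below 1 for 651 of the latter.

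The Sca1+ fibroblast list (genes of Sca1+ fibroblasts of other tissues) had 10 of its 26 genes deep enough, of which 7 were higher and 2 lower, with a median log2 ratio of 1.33 beside -0.06 over all genes. Ly6c1, another Ly6 surface protein, stood at 69.1 CPM (54.1 to 87.0) in the Ly6a+ Cxcl9- cells and 1.46 CPM (0.302 to 4.27) in the reference. It was found in 32 of 129 cells and in 3 of 350. Scara5, a ferritin receptor of adventitial fibroblasts, was 3.78-fold higher (2.95 to 4.86), Gfpt2, an enzyme of the hexosamine pathway, 4.66-fold (2.67 to 8.44), and Smoc2, a calcium-binding matrix protein, 3.02-fold (1.51 to 6.22). Gdf10, a BMP family ligand, stood at 0.245 of the reference level (0.148 to 0.386) and Islr, a secreted protein of mesenchymal progenitors, at 0.583 (0.518 to 0.655). In Y-linked cells the list had 6 genes higher and 2 lower of 9, with a median of 1.60 (background 9.11% higher and 15.9% lower). The direction of this median rests on genes of low count: it turned to -0.58 over the 5 genes with an expected count of 30 and to -0.62 in cells thinned to 2000 UMIs.

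Prg4 and Gsn were broad in these cells and not set by single cells. With each cell thinned to 2000 UMIs, Prg4 was found in 73.2% of Ly6a+ Cxcl9- cells and 16.5% of the reference, and Gsn in 63.0% and 24.6%. Red blood cell precursors of the library, thinned alike, held Prg4 in 0.0823% and Gsn in 0.124%. The ratios were 4.77 for Prg4 (4.36 to 5.22) and 3.95 for Gsn (3.53 to 4.42), and within Y-linked cells 3.37 and 3.25. Timp3, an inhibitor of matrix metalloproteinases, was 3.49-fold higher (2.96 to 4.13), Apod, a lipid-binding protein, 2.44-fold, Axl, the receptor tyrosine kinase that binds Gas6, 3.10-fold and Hic1, a repressor that marks mesenchymal progenitors, 2.01-fold.

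Of 20 immediate early genes deep enough, 5 were higher and 3 lower, with a median of 0.29. In Y-linked cells 5 were higher and 5 lower of 20, with a median of -0.03, so the list as a whole did not lie to one side. Klf4, a zinc finger transcription factor, stood at 258 CPM (228 to 291) against 52.1 CPM (42.7 to 63.0) and Klf2, which flow and quiescence are known to induce, at 1257 CPM (1190 to 1327) against 501 CPM (471 to 533). Ier3, an early response gene, was 2.69-fold higher. The ratios in Y-linked cells were 3.94, 1.65 and 1.87.

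A pair of complement components were at least 1.5-fold higher among 10 genes of that list. C3, the central complement protein, stood at 1123 CPM against 609 CPM, a ratio of 1.84 (1.70 to 2.00), and Cfb, its convertase partner, was 1.55-fold higher (1.35 to 1.77). Serping1, the C1 inhibitor, was 1.47-fold higher (1.41 to 1.54), whereas Cd55, a membrane inhibitor of complement, was at 0.227 (0.100 to 0.454). C3 was not higher in the 13 cells with Xist, where its ratio to the Xist reference was 0.979.

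**Figure D2:**
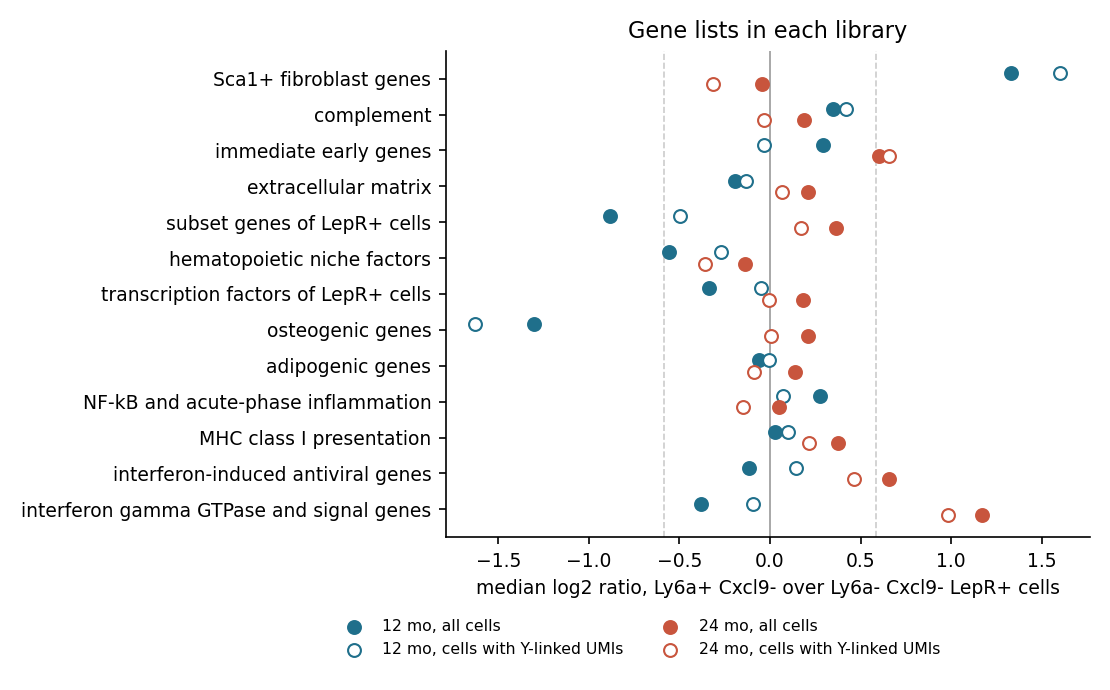
Median log2 ratio of Ly6a+ Cxcl9- over Ly6a- Cxcl9- LepR+ cells for 13 gene lists, at 12 mo in blue and 24 mo in red, with filled points for all cells, open points for Y-linked cells and dashed lines at 1.5-fold. The osteogenic list stood at -1.30 at 12 mo and 0.21 at 24 mo, and the interferon gamma list at -0.38 and 1.17.

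Osteogenic transcripts were lower as a group at 12 mo. Of 25 genes 20 were at least 1.5-fold lower, each with an interval below 1, and none was higher, with a median of -1.30, and in Y-linked cells 22 of 25 were lower and 1 higher with a median of -1.63. The matrix protein of mature osteoblasts, osteocalcin, showed the widest gap, with Bglap at 2.88 CPM (0.594 to 8.41) against 107 CPM (93.1 to 122) and Bglap2 at 5.76 CPM against 106 CPM. Postn, a matrix protein of the periosteum, had 1 UMI in the Ly6a+ Cxcl9- cells and 457 in the reference, a ratio of 0.00431 (0.000109 to 0.0241). Ibsp, bone sialoprotein, stood at 1425 CPM against 3610 CPM, Spp1, osteopontin, at 1798 against 4662 CPM, and Mmp13, a collagenase of bone, at 652 against 2059 CPM. The Wnt inhibitor Wif1 was at 0.405 (0.345 to 0.474) and Runx2, the transcription factor of osteoblast commitment, at 0.558 (0.485 to 0.641). In the Xist cells the list's median was -0.62 and Runx2 was at 1.11.

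The reference was itself uneven in these genes. Summed over the list, the median Ly6a+ Cxcl9- cell held 75.4 osteogenic UMIs per 10000 and the median reference cell 119.9, but the 90th percentile of the reference was 326.6, which 3 of 129 Ly6a+ Cxcl9- cells exceeded. The groups thus overlapped widely, and the gap was wider in the upper tail than at the median.

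Matrix and niche genes lay on both sides of the reference. Of 49 matrix genes 5 were higher and 14 lower. Tnc, tenascin C, stood at 330 CPM against 2096 CPM, a ratio of 0.158 (0.141 to 0.176), and the fibril-associated collagen Col12a1 at 0.218 (0.161 to 0.289). Bgn, the proteoglycan biglycan, was 1.5-fold higher (1.43 to 1.56) and Igfbp5, a binding protein of insulin-like growth factors and the most abundant of the list, 1.48-fold (1.45 to 1.52). Among 25 niche factors 11 were lower and 2 higher, with a median of -0.56 that was -0.27 in Y-linked cells. Gas6, the ligand of Axl, was at 0.471 (0.436 to 0.508), Bmp4 at 0.291 (0.205 to 0.404) and the adhesion receptor Vcam1 at 0.679 (0.622 to 0.741). Il7, the cytokine of early lymphocytes, was at 0.738 (0.570 to 0.949) but at 1.04 in Y-linked cells, and Clec11a, the bone growth factor Osteolectin, at 0.991 (0.807 to 1.21).

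Genes that distinguish subsets of LepR+ cells also differed at 12 mo. The receptor gene Pdgfra was 1.56-fold higher (1.4 to 1.74), whereas Pappa, a protease that frees insulin-like growth factors, was at 0.430 (0.371 to 0.496) and Angptl1, a secreted angiopoietin-like protein, at 0.286 (0.210 to 0.382), though Angptl1 was at 0.941 in Y-linked cells. The fat cell hormone Adipoq was at 0.487 and lipoprotein lipase, Lpl, at 0.670, with 0.869 and 1.02 in Y-linked cells. Aldh1a2, an enzyme that makes retinoic acid, stood at 124 CPM against 231 CPM over all cells but was 2.66-fold higher within Y-linked cells.

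Interferon-induced genes were near the reference at 12 mo. Of 43 antiviral genes 3 were higher and 5 lower with a median of -0.11, and of 17 genes of the interferon gamma list (GTPases and signal genes) 1 was higher and 4 lower with a median of -0.38. In Y-linked cells the medians were 0.14 and -0.10. Iigp1 stood at 398 CPM against 599 CPM but was 1.44-fold higher in Y-linked cells. Irf1 was at 1.09 (0.909 to 1.31), Isg15 at 0.686 (0.540 to 0.866) and B2m, the light chain of MHC class I, at 0.906 (0.866 to 0.947). None of 20 MHC class I genes differed by 1.5-fold.

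At 24 mo the Ly6a+ Cxcl9- cells differed from the reference instead in interferon-induced transcripts. The choice used Ly6a, which interferons also induce in several cell types, so these differences are a description. Iigp1 stood at 940 CPM (861 to 1023) against 234 CPM (223 to 245), and it was found in 59.6% of cells thinned to 2000 UMIs against 31.8% of the reference and 4.09% of red blood cell precursors. Over 6973 genes deep enough, 545 were at least 1.5-fold higher (7.82%) and 387 lower (5.55%), with the interval past 1 for 415 and 141. Under median-of-ratios scaling 274 genes were higher and 650 lower, so that the higher ones made up 29.7% of the called genes in place of 58.5%, and the median of all genes moved from 0.08 to -0.06. Differences are therefore read against that shift.

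Of 39 antiviral genes 23 were higher, each with its interval above 1, and none lower, with a median of 0.65. Of 12 genes of the interferon gamma list 8 were higher and 2 lower, with a median of 1.17. In Y-linked cells (background 4.54% higher and 12.1% lower) 15 of 36 and 7 of 8 were higher and none lower, with medians of 0.47 and 0.98. Thinned to 2000 UMIs the median of the antiviral list was 0.38.

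Interferon-induced GTPases of the defence against intracellular pathogens were higher together. Iigp1 was 4.02-fold higher (3.64 to 4.43), Igtp 3.66-fold (2.41 to 5.42), Irgm2 2.91-fold (2.05 to 4.05), Irgm1 2.75-fold (1.91 to 3.89) and the guanylate-binding protein Gbp7 2.37-fold (1.83 to 3.03). Irf1, a transcription factor that interferons induce, was 1.59-fold higher (1.28 to 1.95). The chemokine gene Cxcl10, which shares a receptor with Cxcl9, held 13 UMIs in 7 of 101 cells and 12 UMIs in 9 of 1108 reference cells. Among receptors Ifngr2 was 1.5-fold higher (1.17 to 1.91), Ifngr1 1.19-fold (0.990 to 1.41) and the kinase gene Jak1 1.42-fold (1.18 to 1.70).

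Sensors and effectors of the antiviral response were also higher. Zbp1, a sensor of nucleic acids in the Z form, stood at 90.1 CPM (67.1 to 118) against 23.9 CPM (20.5 to 27.7), Ifi44 at 67.1 against 23.4 CPM, Ifi207, of the AIM2-like family, at 51.2 against 18.5 CPM, and Ifit3, which helps bind viral RNA, at 47.7 against 16.1 CPM. Isg15, a ubiquitin-like modifier, was 1.45-fold higher (1.20 to 1.74) and Ly6e, a Ly6 protein that restricts viruses, 1.98-fold (1.71 to 2.29). Peptide presentation differed less, and of 19 MHC class I genes 3 were at least 1.5-fold higher. Those were the nonclassical heavy chain gene H2-T23 (1.82-fold, 1.60 to 2.07), H2-Q6 (1.72-fold, 1.41 to 2.09) and the peptide transporter gene Tap1 (1.80-fold, 1.34 to 2.37). The abundant heavy chain genes H2-K1 and H2-D1 were at 1.08 and 1.06 and B2m at 1.16, and all 3 were under 1 in Y-linked cells, at 0.902, 0.871 and 0.988.

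Interferons act on these genes through 2 short DNA elements, the GAS element of the interferon gamma response (TTCNNNGAA, the same on both strands) and the ISRE, whose core (GAAA, then 2 bases of any kind, then GAAA) was searched on both strands. Both were looked for in the 250 bases before the start of each gene, in the RefSeq promoters of GRCm38.p6. Of the 31 interferon-list genes at least 1.5-fold higher in the 24-mo cells, 26 had a promoter entry, and the ISRE core was present in 12 (46.2%) and GAS in 5 (19.2%). Of the other 20 genes of these lists deep enough, 16 had an entry and 6 held the ISRE core (37.5%) and 3 GAS (18.8%). Over all 27025 promoters the shares of the ISRE core and GAS were 3.46% and 8.13%. Over the 431 promoters of all genes higher at 24 mo, in these lists or not, they were 5.8% and 6.26%. Over the 423 promoters of all genes higher at 12 mo they were 4.02% and 7.57%. A match shows that the letters are present, not that the site is used. The stretches around the element are shown for the 6 genes with the highest ratios among those with a match, 5′ to 3′ on the strand of the gene, with the matched bases of either element in capitals. They lie at chr11:58199502-58199551 (Igtp, plus strand), chr19:34583387-34583436 (Ifit3, plus), chr11:58214893-58214942 (Irgm2, plus), chr1:173741821-173741870 (Ifi207, minus), chr11:48871421-48871464 (Irgm1, minus) and chr8:61928048-61928086 (Ddx60, an RNA helicase gene, plus).
Igtp: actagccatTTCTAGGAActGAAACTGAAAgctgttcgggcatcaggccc
Irgm2: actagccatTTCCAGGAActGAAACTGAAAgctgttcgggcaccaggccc
Irgm1: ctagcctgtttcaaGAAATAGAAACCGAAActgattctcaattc
Ifit3: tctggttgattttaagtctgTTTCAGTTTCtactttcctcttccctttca
Ifi207: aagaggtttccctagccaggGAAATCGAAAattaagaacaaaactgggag
Ddx60: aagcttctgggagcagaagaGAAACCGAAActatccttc

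The neighbouring genes Igtp and Irgm2 share nearly the same stretch, with a GAS element just upstream of the ISRE core. Irgm1 held overlapping copies of the core, and in Ifit3 the core lies on the opposite strand, so that it reads TTTC, 2 bases and TTTC here. Iigp1 and Zbp1 had no promoter entry.

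**Figure D3:**
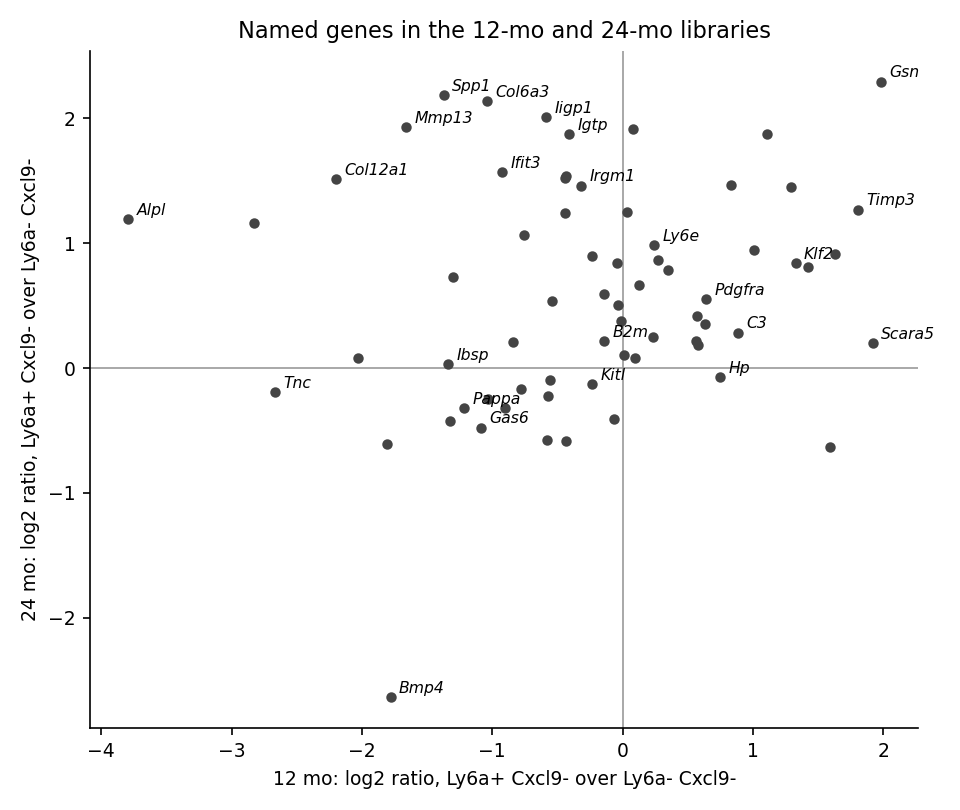
Log2 ratio of Ly6a+ Cxcl9- over Ly6a- Cxcl9- LepR+ cells at 12 mo (x axis) and 24 mo (y axis) for 67 named genes, each point a gene. Prg4 was left out for the size of its ratio at 24 mo, which 1 cell set. Other genes with many of their UMIs in 1 cell were not left out. Iigp1, Igtp and Irgm1 lay above 0 at 24 mo only, Alpl, Mmp13 and Spp1 were below 0 at 12 mo and above it at 24 mo, and Gsn and Timp3 were above 0 at both.

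Bone and matrix genes did not repeat the pattern of 12 mo. Of 20 osteogenic genes 4 were higher and none lower, with a median of 0.21 that was 0.00 in Y-linked cells. Spp1 stood at 3656 CPM against 806 CPM, though 1 cell held 41.0% of its UMIs and the ratio of 4.54 (4.31 to 4.77) was 3.02 without that cell. Mmp13 was 3.81-fold higher (3.49 to 4.14) and Alpl 2.29-fold (1.69 to 3.04), whereas Ibsp stood at 3672 against 3598 CPM. Of 47 matrix genes 11 were higher and none lower (8 of 46 and 3 in Y-linked cells), among them Col6a3, a chain of collagen VI, at 132 CPM against 30.1 CPM and Col12a1 at 2.85-fold (2.21 to 3.64). Timp1, which like Timp3 inhibits metalloproteinases, was 3.67-fold higher (3.09 to 4.34). Abcc9, a potassium channel subunit of pericytes, was 2.24-fold higher (1.48 to 3.29).

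Single cells set 2 of the largest ratios. Prg4 was at 294 times the reference at 24 mo, but 1 cell held 99.6% of its 1576 UMIs, the ratio without that cell was 1.24, and 7 of 101 cells held any. Fn1, fibronectin, was at 314 times the reference with 99.5% of UMIs in 1 cell and at 1.82 without it.

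Immediate early genes were higher at 24 mo in 9 of 15 with none lower, with a median of 0.60 and of 0.66 in Y-linked cells. Egr1 stood at 254 CPM (214 to 299) against 107 CPM (99.7 to 115) and Jun at 284 against 153 CPM, both transcription factor genes. Genes of the S, G2 and M phases were lower in 12 of 31, of which 6 had an interval below 1, with a median of -0.56. In Y-linked cells 9 of 28 were lower, 3 with an interval below 1, and the median was -0.38. Erythroid markers were lower in 6 of 10 in the same comparison, with a median of -0.60 that was 0.33 in Y-linked cells, and cells with over 10% hemoglobin UMIs held 13.7% of the UMIs of the Ly6a+ Cxcl9- cells and 19.1% of those of the reference. The part of red blood cell RNA in the cell cycle values was not tested. Mki67, the marker of cycling cells, stood at 93.6 CPM against 126 CPM, with 71.7% of its UMIs in 1 cell and a ratio of 0.267 without that cell.

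Niche factors were close to the reference at 24 mo, with 2 of 20 higher and 2 lower, though 6 of 19 were lower in Y-linked cells. Bmp4 was again low, at 10.6 CPM (3.89 to 23.1) against 65.8 CPM (60.1 to 71.9), and Angptl1 at 0.656 (0.507 to 0.835). Gas6 was at 0.718 (0.669 to 0.771), Il7 at 0.668 (0.432 to 0.990), Vcam1 at 0.937 (0.850 to 1.03) and Clec11a at 1.30 (0.926 to 1.78). Pdgfra was 1.47-fold higher (1.27 to 1.69), while Pappa was at 0.802, Adipoq at 0.844 and Lpl at 0.672. Aldh1a2 was at 0.8 over all cells (0.583 to 1.07) and at 2.02 in Y-linked cells.

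Few genes differed from the reference in the same direction at both ages. In each library alone 6.04% were higher and 12.4% lower at 12 mo, and 7.82% and 5.55% at 24 mo, so only a small part could be shared. Of 6904 genes deep enough in both libraries 55 were at least 1.5-fold higher in both (0.797%) and 66 lower in both (0.956%), while 87 were lower at 12 mo and higher at 24 mo (1.26%) and 25 the reverse (0.362%). Across these genes the log2 ratios of the 2 ages had a Pearson correlation of 0.03 and a Spearman correlation of -0.002, a description over genes of 2 libraries, and over the 689 genes with an expected count of 100 the values were 0.20 and 0.02. In Y-linked cells the Pearson and Spearman correlations were -0.07 and -0.07 over 5787 genes, and -0.0062 and -0.0957 over the 470 with an expected count of 100. The low genes carry more counting error, which lowers such a correlation.

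Ordered by the smaller of their ratios at 12 and 24 mo, the genes higher in both began with Prg4, Gsn, Apod, Timp3, Saa3, Fxyd5, Timp1 and Fabp4. Prg4 passed 1.5-fold at 24 mo only through a single cell, as described above. Gsn was 3.95-fold and 4.90-fold higher (3.13-fold at 24 mo without the cell that held 40.2% of its UMIs), Timp3 3.49-fold and 2.41-fold, Timp1 2.16-fold and 3.67-fold and Apod 2.44-fold and 2.73-fold. The acute-phase gene Saa3 was 2.28-fold and 3.10-fold higher, with 44.1% and 60.0% of its UMIs in 1 cell, and Fxyd5, a regulator of the sodium pump, 2.24-fold and 2.94-fold. Fabp4, a fatty acid carrier of fat cells, was 2.10-fold and 2.88-fold higher, and 1.46-fold and 1.82-fold without the cells that held 46.9% and 45.7% of its UMIs. Axl was 3.10-fold and 1.88-fold higher and Hic1 2.01-fold and 1.93-fold. The galectin gene Lgals1 was 1.93-fold and 1.97-fold higher, Tmem100, a membrane protein linked to BMP signals, 2.46-fold and 2.07-fold, and Kcne4, a potassium channel subunit, 3.61-fold and 1.97-fold. Each of these was also above 1.5-fold in Y-linked cells of both libraries, except Saa3 at 12 mo, which stood at 1.45. The genes lower in both included Bmp4 (0.291 and 0.161) and Rspo2, a ligand that strengthens Wnt signals (0.293 and 0.535).

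Set directly side by side, the 24-mo Ly6a+ Cxcl9- cells held more transcript of part of the interferon-induced genes than those of 12 mo. They held less immediate early and fibroblast transcript. Of 7163 genes 735 were at least 1.5-fold higher (10.3%) and 1102 lower (15.4%). Erythroid markers were higher in 8 of 9 with a median of 4.66, and in the reference in 10 of 10 with a median of 2.89. Genes of the S, G2 and M phases were higher in 10 of 19 (median 0.65), and in the reference in 33 of 37 (median 1.55). Without cells over 10% hemoglobin, the higher genes made up 59.3% of the called genes in place of 40.0%. In the antiviral list 18 of 40 were higher and 2 lower with a median of 0.46, and in the interferon gamma list 9 of 15 and 1 with a median of 0.72. In the reference cells of the same libraries these lists had medians of -0.41 and -0.79. Summed over the Ly6a+ Cxcl9- cells, the antiviral list differed little, at 6999 CPM at 24 mo and 6749 CPM at 12 mo. The MHC class I list was not higher at 24 mo. It had 0 of 20 genes higher and 0 lower, a median of -0.23, and sums of 12158 CPM at 24 mo and 15221 CPM at 12 mo. Within Y-linked cells the medians of the antiviral and interferon gamma lists were 0.37 and 0.77 in the Ly6a+ Cxcl9- cells and -0.11 and -0.37 in the reference.

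Iigp1 stood at 398 CPM at 12 mo and 940 CPM at 24 mo in the Ly6a+ Cxcl9- cells, a ratio of 2.36 (2.07 to 2.69), and at 599 and 234 CPM in the reference. Gbp7 was 2.02-fold higher at 24 mo (1.45 to 2.84) where the reference was at 0.630. Isg15 was 2.34-fold higher (1.79 to 3.08) with the reference at 1.11. Within Y-linked cells the ratios of Iigp1 were 2.75 and 0.899, so that the drop in the reference was mostly absent there.

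Immediate early genes were lower at 24 mo in both groups, with medians of -1.10 in the Ly6a+ Cxcl9- cells and -1.37 in the reference, and of -0.90 and -1.63 in Y-linked cells. Klf2 stood at 1257 CPM at 12 mo and 129 CPM at 24 mo, against 501 and 72.1 CPM in the reference, and Klf4 at 258 and 31.8 CPM against 52.1 and 3.78 CPM. At 24 mo 1 cell held 55.6% of the Klf4 UMIs. Age and library cannot be told apart, whether a difference between the ages is found in both groups or in 1 of them.

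Fibroblast genes were lower at 24 mo in 5 of 9 and higher in none, with a median of -0.78 beside -0.15 in the reference, and of -1.16 beside -0.18 in Y-linked cells. Ly6c1 stood at 69.1 CPM at 12 mo and 3.53 CPM at 24 mo (2 UMIs in 1 cell), Scara5 at 184 and 95.4 CPM where the reference held 48.7 and 82.9 CPM, and Gfpt2 at 43.2 and 14.1 CPM. Other low ratios were those of the chaperone gene Hspb1 (0.109, 0.0461 to 0.221), the neutrophil chemokine gene Cxcl1 (0.0868, 0.0276 to 0.209) and Sftpa1, a surfactant protein gene (0.100, 0.0201 to 0.309), with 0.366, 0.262 and 1.03 in the reference. H19, an imprinted noncoding RNA, held 104 UMIs at 12 mo, 67.3% of them in 1 cell, and none at 24 mo.

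Osteogenic genes took both directions between the ages in the Ly6a+ Cxcl9- cells, where 7 of 21 were higher and 4 lower with a median of -0.01. In the reference the median was -1.40. The medians in Y-linked cells were -0.02 and -1.88. Tnc was 2.74-fold higher at 24 mo (2.39 to 3.16) and Ibsp 2.58-fold (2.41 to 2.76), with 0.494 and 0.997 in the reference. Mmp13 was 1.90-fold higher (1.71 to 2.11) where the reference was at 0.158. Summed over the list, the Ly6a+ Cxcl9- cells held 9462 CPM at 12 mo and 14415 CPM at 24 mo and the reference 20625 and 10029 CPM, so the opposite signs against the reference came with a change in the reference as well.

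The number of Ly6a UMIs in a cell went with different genes at the 2 ages. Ly6a itself set the choice, so these bins are a description as well. At 12 mo Gsn stood at 231, 574, 875 and 1218 CPM in cells with 0, 1, 2 and 3 or more Ly6a UMIs, and Timp3 at 110, 178, 271 and 593 CPM. Ly6c1 stood at 1.46, 14.1, 54.2 and 121 CPM. The interferon gamma list gave 1427, 1092, 1726 and 932 CPM, with no order. These bins had median depths of 5144, 6829, 7421 and 8062.5 UMIs, and in Y-linked cells, where the depths were 8926, 7678.5, 7587.5 and 8912.5 UMIs, Gsn stood at 300.2, 679, 960 and 1212 CPM.

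At 24 mo the interferon gamma list stood at 742, 1551, 1998 and 3152 CPM in the same bins, at median depths of 5124, 5040, 4907 and 3710 UMIs. Iigp1 stood at 234, 708, 1128 and 1403 CPM, so it too was higher in each next bin. The Y-linked cells gave 768, 1540, 2907 and 2930 CPM for the list. Gsn stood at 73.5, 176, 1246 and 211 CPM, where the value for 2 UMIs includes the cell that held 40.2% of its transcripts. The osteogenic list stood at 10029, 12754, 11055 and 21039 CPM at 24 mo and at 20625, 9871, 10783 and 8751 CPM at 12 mo, so that the cells with 3 or more Ly6a UMIs were the highest bin at one age and the lowest at the other.

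**Figure D4:**
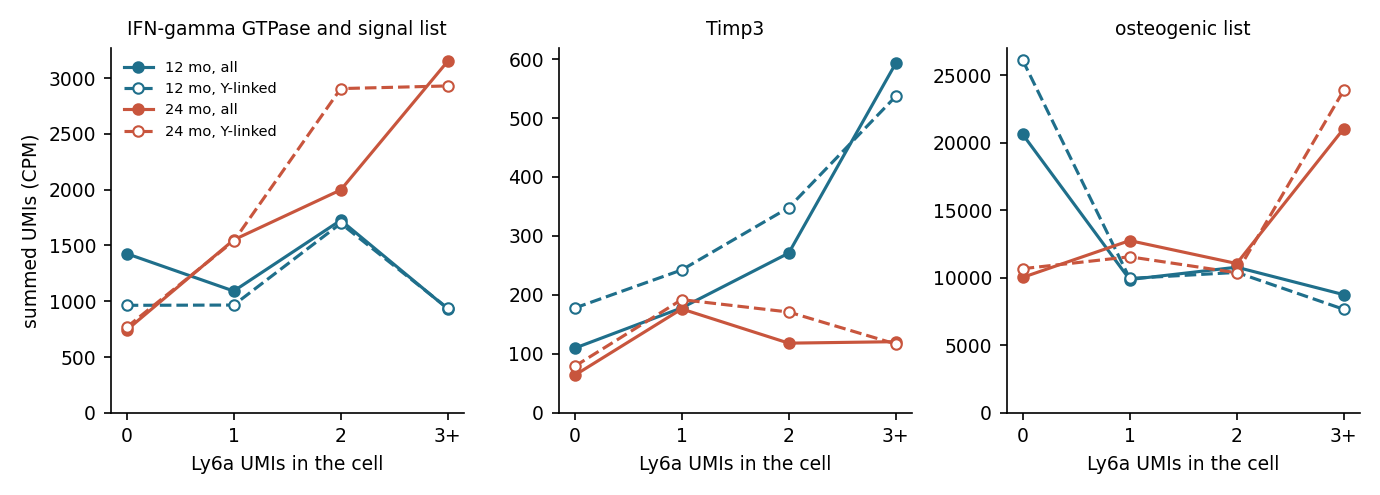
Summed level in CPM (linear axes from 0) of the interferon gamma list, Timp3 and the osteogenic list in LepR+ cells without Cxcl9 that held 0, 1, 2 and 3 or more Ly6a UMIs, at 12 mo in blue and 24 mo in red, with solid lines for all cells and dashed lines for Y-linked cells. The interferon gamma list went from 742 to 3152 CPM over the bins at 24 mo, and Timp3 from 110 to 593 CPM at 12 mo.

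Interferon-induced transcripts were uneven among the 24-mo cells. In UMIs of the interferon gamma list per 10000, the median Ly6a+ Cxcl9- cell stood at 13.2, the upper quartile at 40.4 and the highest cell at 282. The reference had a median of 7.09, and its 90th percentile was 16.6. Of the 101 cells 41 lay above that value, with a median depth of 3405 UMIs against 5297 in the other 60, and among those 41 were 18 of the 29 cells with 3 or more Ly6a UMIs and 20 of the 57 with 1. At 12 mo 7 of 129 cells lay above the 90th percentile of their reference, 37.3. Shallow cells spread wider in such a value, and the part of depth was not tested.

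**Figure D5:**
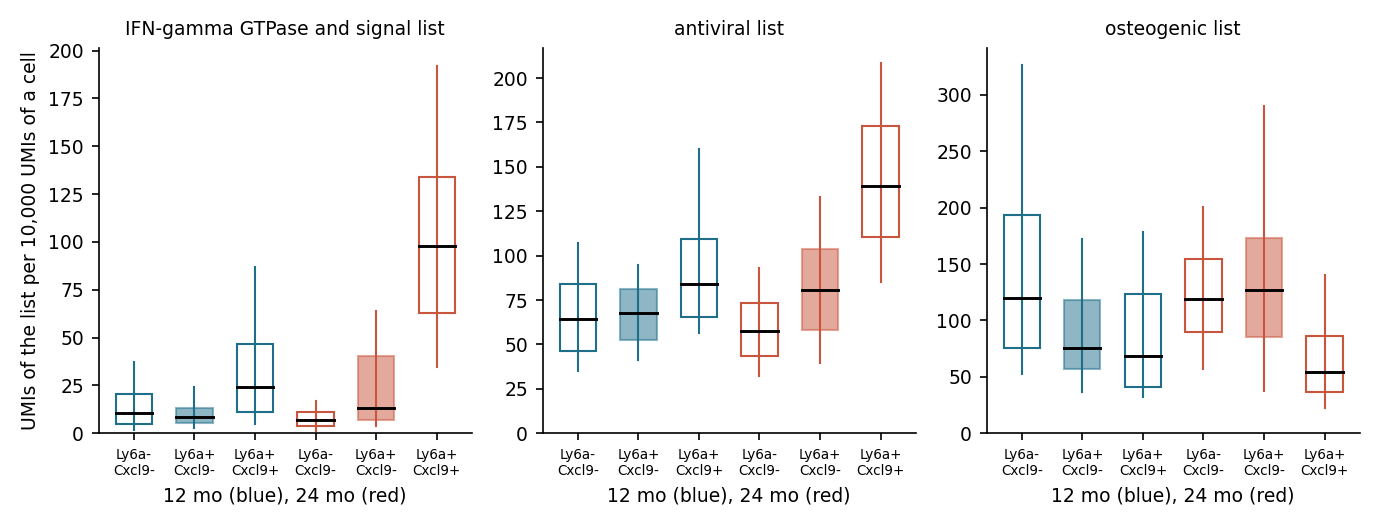
UMIs of 3 gene lists per 10000 UMIs of a cell in Ly6a- Cxcl9-, Ly6a+ Cxcl9- (filled) and Ly6a+ Cxcl9+ LepR+ cells at 12 mo in blue and 24 mo in red, with the median as a black bar, the quartiles as a box and the 10th to 90th percentiles as a line. For the interferon gamma list at 24 mo the medians were 7.09, 13.2 and 97.9.

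LepR+ cells with both Ly6a and Cxcl9 held more interferon-induced transcript at 24 mo. The choice used Cxcl9, itself a target of interferon gamma, so these differences are a description. Of 7232 genes, 493 were at least 1.5-fold higher in the Ly6a+ Cxcl9- cells (6.82%) and 990 lower (13.7%), among them 35 of 47 antiviral genes, 20 of 21 of the interferon gamma list and 19 of 20 MHC class I genes, with medians of -1.09, -2.21 and -0.96, and of -1.16, -2.34 and -1.08 in Y-linked cells. Iigp1 stood at 940 CPM against 4335 CPM and B2m at 2245 against 4333 CPM. Cxcl10 stood at 22.96 CPM against 772 CPM.

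In several other genes the Ly6a+ Cxcl9- cells lay nearer the reference than the Ly6a+ Cxcl9+ cells did. Ibsp stood at 3672 CPM against 702 CPM in cells with both genes, Pappa at 498 against 221 CPM, Gas6 at 1452 against 801 CPM and Lpl at 793 against 442 CPM, beside 3598, 621, 2021 and 1180 CPM in the reference. Gsn and Timp3 were higher than in either group, at 2.94-fold (2.44 to 3.55) and 2.13-fold (1.61 to 2.79) over the cells with both genes. The Gsn level of the Ly6a+ Cxcl9- cells rested in large part on a single cell, as given above. Its ratio to the cells with both genes was not computed without that cell. Of the 101 cells 28 held more of the interferon gamma list than the 10th percentile of Ly6a+ Cxcl9+ cells, 34.8 per 10000.

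At 12 mo the 35 Ly6a+ Cxcl9+ cells were close to the Ly6a+ Cxcl9- cells in several of the genes that set the latter apart. Prg4 stood at 2028 CPM and 1593 CPM in cells with and without Cxcl9, Klf2 at 1269 and 1257 CPM, and Gas6 at 769 and 792 CPM. Against the common reference, the median of the osteogenic list was -1.27 in cells with both genes and -1.30 in the Ly6a+ Cxcl9- cells. Iigp1 differed, at 1367 CPM against 398 CPM.

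The 13 cells of 2 mo held 74952 UMIs in all, too few for most genes. Iigp1 stood at 307 CPM against 316 CPM in the reference, a ratio of 0.972 (0.615 to 1.46), and Spp1 at 0.786 (0.607 to 1.00). Gsn, with 12 UMIs, stood at 160.1 CPM against 56.8 CPM, a ratio of 2.82 (1.45 to 4.98), and Prg4, with 4, at 1.23 (0.334 to 3.19).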

How the data were processed

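Single marrow stromal cells of mice of 2, 12 and 24 mo of age were measured in 3 droplet libraries (10x Chromium), 1 for each age. The authors deposited UMI counts for each gene and barcode (32285 genes), made with Cell Ranger 6.1.2 on the mm10 build per the labels, without normalization. No column of another sample was present.

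A barcode was kept as a cell when it had from 200 to 10000 detected genes, a total between 500 and 100000 UMIs, and less than 7.5% of them mitochondrial. The members and the 25 gene lists were chosen with earlier results of these data known. Counts were summed over the cells of a group and library and divided by the summed UMIs (CPM), with exact Poisson intervals for levels, exact conditional binomial intervals for ratios and Clopper-Pearson intervals for shares, all at 95% and for counting error only. A count of 0 allows up to 3 counts. A gene entered a comparison with an expected count of at least 10 in the smaller group and was called at 1.5-fold. With 1 library per age no p-value was computed, and age, library and mouse cannot be told apart.

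Named genes followed 1 rule: the 15 with the largest ratios in both libraries in each direction, the 10 highest and 10 lowest between ages, up to 4 per list by ratio and by level, and fixed genes such as Kitl and B2m. Foxc1 and the defining markers of other cells were named beside it. Doublets were not removed from the values given, and leaving out the 6% of cells with the highest Scrublet score was an alternative. The scripts were tested on simulated data. Python 3.11.15, numpy 2.4.6, scipy 1.17.1, pandas 2.3.3, scanpy 1.11.5 and matplotlib 3.10.9 were used.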

Additional observations from a re-analysis of the deposited data

Results flagged for a closer look

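For 4 gene lists the median log2 ratio of Ly6a+ Cxcl9- over Ly6a- Cxcl9- cells had opposite signs in the 12-mo and 24-mo libraries. In each list 1 of the medians over all cells was past 1.5-fold and the other was within it. The median log2 ratio of the interferon gamma list was -0.38 at 12 mo and 1.17 at 24 mo. The subset genes of LepR+ cells stood at -0.88 and 0.36, the osteogenic genes at -1.30 and 0.21, and the Sca1+ fibroblast genes at 1.33 and -0.05. For the fibroblast genes the signs were not stable, since the 12-mo median was -0.58 at an expected count of 30 and -0.62 in thinned cells. The difference between the ages was not tested, since each age was 1 library. In Y-linked cells the pairs were -0.10 and 0.98, -0.50 and 0.17, -1.63 and 0.00, and 1.60 and -0.32.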

How the results depend on the processing

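No paired analysis was possible because each age was 1 library. Among the alternatives, leaving out cells over 10% hemoglobin and leaving out the cell with the most UMIs of a gene were chosen after seeing the data. The share of Ly6a+ Cxcl9- cells was 0.0613%, 11.8% and 2.35% at 2, 12 and 24 mo with at least 2 Ly6a UMIs, 5.33% and 1.24% at 12 and 24 mo in Xist cells, 36.4% at 12 mo in Y-linked cells and 13.7% at 12 mo in thinned cells. Counts of genes higher and lower at 12 mo (556 and 1141) were 207 and 434 at an expected count of 30, 3436 and 2928 with no filter, 158 and 398 at 2-fold, 355 and 627 thinned, and 80 and 141 in Xist cells. At 24 mo (545 and 387) they were 137 and 54, 6802 and 1375, and 78 and 103 under the first 3 of these, 274 and 650 with median-of-ratios scaling and 267 and 712 in Y-linked cells, with 207 higher thinned, 360 higher without cells over 10% hemoglobin, 247 lower without the highest Scrublet scores and 234 lower with at least 2 Ly6a UMIs. Between ages (735 and 1102) they were 190 and 459, 4123 and 2880, and 240 and 346, with 439 lower thinned, 698 with at least 20 Cxcl12 UMIs, 727 with at least 2 Lepr UMIs, 659 without the highest Scrublet scores, 544 with at least 2 Ly6a UMIs and 638 without cells over 10% hemoglobin. The higher share of called genes was 40.0% between ages and 32.7% with totals lacking Cxcl12, Lepr, mitochondrial and ribosomal protein genes.

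The Sca1+ fibroblast median at 12 mo turned to -0.58 at an expected count of 30 and -0.62 thinned, and between ages to 0.20 with no filter. The antiviral median at 24 mo was 0.38 thinned, and the interferon gamma median between ages 1.27 thinned and 1.34 with at least 2 Ly6a UMIs. The osteogenic median at 12 mo was -0.62 in Xist cells. Hematopoietic markers at 24 mo turned to 0.48 with no filter and 0.26 in Y-linked cells, erythroid markers to 0.18 in Xist cells at 12 mo and 0.33 in Y-linked cells at 24 mo, and cell cycle genes between ages to -0.47 with at least 2 Lepr UMIs and -0.085 without the highest Scrublet scores. Between ages Prg4 turned to 0.516 thinned, 0.00714 without its highest cell and 0.00563 without the highest Scrublet scores, and Spp1 to 0.966 with at least 2 Lepr UMIs. Klf2 at 24 mo was at 0.860 with at least 2 Ly6a UMIs. At 12 mo the Xist cells gave 0.979 for C3, 0.992 for Hp, 1.11 for Runx2, 1.12 for Adipoq and 1.04 for Aldh1a2, and the Y-linked cells 2.66 for Aldh1a2 and 1.44 for Iigp1. The cause of these shifts was not tested. No value was given for Xist cells at 24 mo, with 2 Ly6a+ Cxcl9- cells. The 13 cells at 2 mo limit that age to genes of high count.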
